A study of Mus musculus with 37 samples.

Results

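Splenocytes that had received the culture medium of RAW264.7 macrophage-like cells were compared with naive splenocytes. The set was taken from the treatment labels and held 13 of the 37 libraries of the series, 11 from medium cultures and 2 naive. All splenocytes came from wild-type FVB mice. The RAW264.7 cells, an established mouse line with macrophage features, had been kept for 72 h at 21% oxygen (normoxia) or at 1% oxygen (hypoxia), each with or without added SPP1, and their medium was then given to splenocytes for 48 h. The 4 medium groups were normoxia without SPP1 (2 libraries, replicates 2 and 3), normoxia with SPP1, hypoxia without SPP1 and hypoxia with SPP1 (3 libraries each). The other 24 libraries came from cultures in which the splenocytes shared the well with the RAW264.7 cells, unwashed (cells, 12 libraries) or after a media wash (washed, 12 libraries), and are called contact cultures. Brefeldin A, a blocker of protein secretion, was added before collection according to the protocol. The labels of the naive libraries give neither a medium nor a culture time, so exposure to conditioned medium cannot be told apart here from culture itself.

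The spleen holds mainly B and T lymphocytes, with smaller numbers of myeloid, erythroid and stromal cells. Conditioned medium carries what macrophages secrete, including cytokines and metabolites, and at the same time lacks nutrients that those cells have used, so it reaches splenocytes without contact between the cells. SPP1 (osteopontin) is a secreted protein that macrophages make and that binds integrins and CD44 on lymphocytes and myeloid cells. In such bulk libraries fewer cells of a type and less RNA per cell cannot be told apart.

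Libraries were made with a 3′ mRNA kit, which reads the ends of polyadenylated transcripts, and the alignment of these mouse reads was to a human genome. Each of the 60708 rows of the table is a human Ensembl gene ID, and a count is a mouse read that aligned to that human gene. Transcripts whose 3′ ends diverge between the species can be missing, and reads of a mouse gene can land on a human paralog or pseudogene, so the gene behind an ID is uncertain. The table does not pair IDs with names, and 0 of the IDs occur in the mouse gene table used for names. IDs are therefore given without symbol, function, position or sequence, at most 2 in each direction per comparison, and the splenocyte label could not be checked against marker genes. Levels are given as CPM, the counts of an ID relative to the scaled library total.

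Total counts were 1077640 ± 140660 (SD, n = 11) in the medium libraries, and 967604 and 631574 in the naive ones. The difference did not pass a two-sided exact permutation test (p = 0.0769, adjusted p = 0.115 over 3 measures), in which 11 against 2 libraries allow no p below 0.0256. The 2 naive libraries held 9988 and 10807 IDs with a count, against 9551 ± 493 (SD, n = 11) in medium (exact permutation p = 0.0769). No pair of replicates looked like 1 library deposited more than once, with a chi-square per degree of freedom of 13.9 for the naive pair, 22.1 to 33.3 for the 3 medium pairs that held hypoxia without SPP1 replicate 1 or normoxia without SPP1 replicate 3, and 2.78 to 10.8 for the other 7 medium pairs. The labels do not tie replicates to animals, so p-values measure the spread between these libraries, which may be partly technical.

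The naive libraries lay apart from the medium libraries on the first principal component of log2 CPM, which held 44.1% of the variance. Their scores were −58.7 and −75.1. Of the medium libraries, 9 scored between 8.89 and 29. The remaining 2 lay nearer to naive, hypoxia without SPP1 replicate 1 at −21.9 and normoxia without SPP1 replicate 3 at −5.33. On the second component (14.6% of the variance) the latter lay farthest out, at −44.3, and the former was at −24.8. The other 9 medium libraries ran from −6.69 to 15.7 there. Neither of the 2 reached the naive libraries on the first component.

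**Figure D1:**
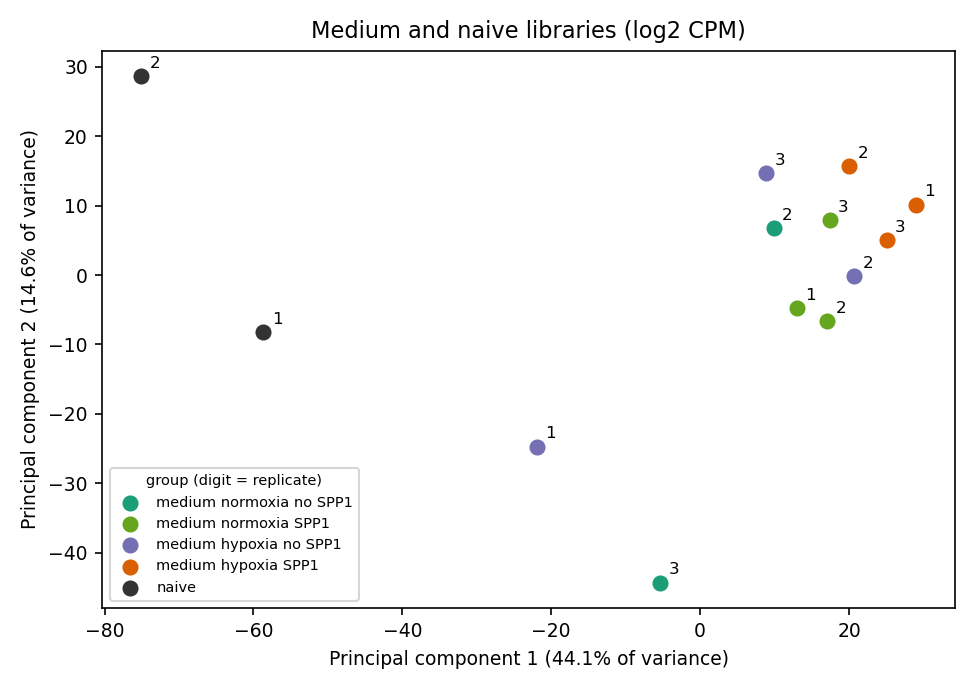
Principal components of log2 CPM of the 11 medium and 2 naive libraries, with 1 point per library, colour for the group and a digit for the replicate. The 2 naive libraries sit at the left (−58.7 and −75.1), 9 medium libraries at the right (8.89 to 29), and 2 libraries without SPP1 between them.

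The same 2 libraries were also those most like the contact cultures. Across the 5193 tested IDs, the correlation of log2 CPM with the mean of the 24 contact libraries was 0.948 for hypoxia without SPP1 replicate 1 and 0.946 for normoxia without SPP1 replicate 3. The other 9 medium libraries ran from 0.884 to 0.919. Correlation with naive replicate 1 was 0.920 and 0.896 for the 2 libraries, against 0.843 to 0.886 for the other 9. With naive replicate 2 it was 0.876 for hypoxia without SPP1 replicate 1, above the other 9 (0.796 to 0.843), whereas normoxia without SPP1 replicate 3, at 0.818, was within their range and so not nearer to that library. These are correlations across IDs, which are not independent replicates, and the libraries shared the preparation, the scaling and the aligned fraction of the transcriptome. Both libraries were kept. They are called below the 2 libraries that stood apart, and the main counts are also given without them.

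A large share of the measured transcripts differed between medium and naive splenocytes, in both directions in similar numbers. With edgeR's quasi-likelihood test and Benjamini-Hochberg adjustment, 1682 of 5193 IDs (32.4%) passed an adjusted p of 0.05, and such IDs are referred to as called. Of these, 886 (17.1% of the IDs tested) were higher and 796 (15.3%) lower in medium. The median size of a called difference was 1.62 on the log2 scale. At least 2-fold differences were found for 757 called IDs that were higher and 652 that were lower, and at least 4-fold differences for 297 and 246. The median over all IDs tested was 0.12 (log2).

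The number of called IDs rested heavily on naive replicate 2, the library with the lowest total count. Without it 564 IDs were called (258 higher, 306 lower), and without naive replicate 1 there were 1198 (627 higher, 571 lower). In both fits the lone naive library was assumed to vary like the other groups. Naive replicate 2 was above naive replicate 1 for 48.9% of all IDs tested, 29.2% of those called higher in medium and 69.7% of those called lower, so it lay farther from medium on both sides. The median difference of medium from naive replicate 1 was 1.35 (log2 CPM) over the IDs called higher and −1.24 over those called lower. From naive replicate 2 it was 1.67 and −1.60. The IDs were chosen by calls that used both naive libraries, so medians in the called direction follow from that choice. Over all IDs tested the medians were 0.07 from naive replicate 1 and 0.12 from naive replicate 2. Without both of the medium libraries that stood apart, 1764 IDs were called, of which 1571 were among the 1682.

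**Figure D2:**
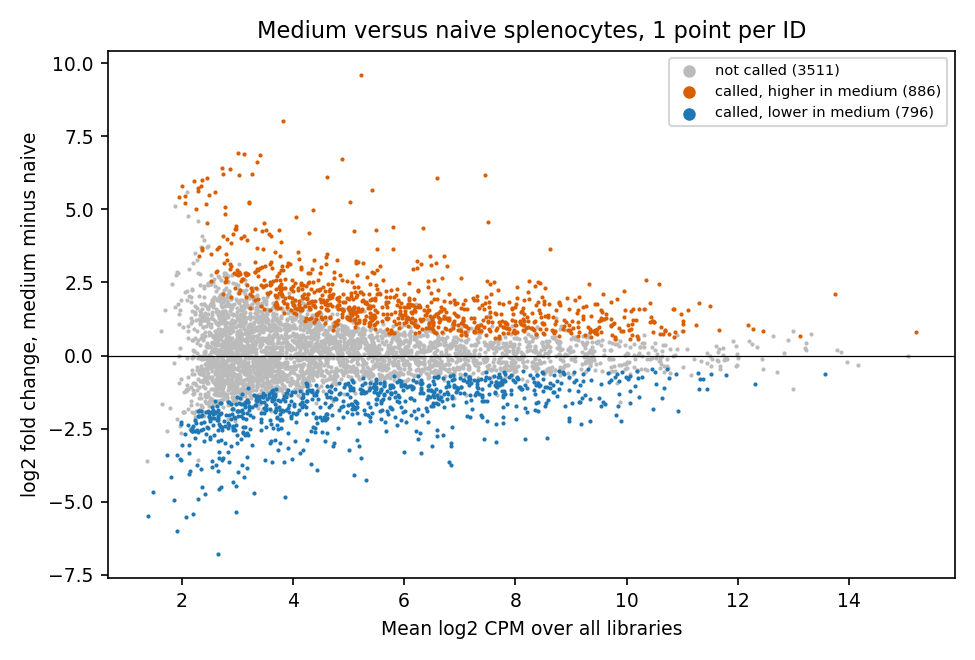
Log2 fold change of medium minus naive (vertical axis) against mean log2 CPM over all 37 libraries (horizontal axis), with 1 point per tested ID and colour for IDs at an adjusted p under 0.05. The 886 higher and 796 lower IDs spread over the whole range of levels.

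Libraries were also compared without a model. All 11 medium libraries lay above both naive libraries for 792 IDs (15.3%) and below both for 754 (14.5%). Of the IDs called higher, 634 (71.6%) had no overlap between the groups, and of those called lower 614 (77.1%) had none. With the 9 medium libraries alone the counts of IDs without overlap were 1150 above (22.15% of the IDs tested) and 995 below (19.16%). A rise was built in, because fewer libraries were compared and those left out lay nearest to naive on the first principal component.

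Calls were found at every level of abundance. Among the 2967 IDs with a mean log2 CPM under 5, 691 (23.3%) were called, with a median size of 2.13 (log2). The share was 42% of 1182 IDs between 5 and 7, 48.7% of 672 between 7 and 9 and 48.3% of 300 between 9 and 11. Of the 72 IDs at 11 or more, which together took 38.2% of the medium counts and 36.5% of the naive counts, 14 were called higher and 9 lower (31.9%), with a median size of 0.894 (log2). The median standard error of the log2 fold change fell from 0.648 in the lowest of these classes to 0.228 in the highest, so a small difference was detectable mainly in abundant IDs.

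Some IDs were close to the limit of detection in one of the conditions. At most 3 counts were found in both naive libraries for 453 IDs, of which 139 were called higher in medium, and 101 of the 453 had more than 3 counts in each of the 11 medium libraries. For 43 IDs both naive libraries held 0 counts, and 30 of these were called higher. In the other direction 35 IDs held at most 3 counts in every medium library, and 16 of them were called lower. IDs this low in naive or in medium passed the count filter through other groups, so the direction of any call was largely fixed. Over all IDs tested 17.1% were called higher and 15.3% lower. The 453 and 35 are not comparable, since they rest on both naive and on all 11 medium libraries. A count of 3 corresponded to 3.42 CPM as the mean of the naive libraries, and such limits cover counting error only.

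The called IDs that were to be named had a mean log2 CPM of at least 5 and no overlap between the medium and naive libraries, which left 400 higher and 335 lower. The largest fold change among the 400 was that of ENSG00000130558. It was at 5.86 and 5.21 CPM in the naive libraries and at 18.5 to 869 CPM in medium, with a median of 499. The lowest medium values were those of the 2 libraries that stood apart, 18.5 CPM in hypoxia without SPP1 replicate 1 and 27.9 CPM in normoxia without SPP1 replicate 3, and the other 9 began at 318. The groups did not overlap, and the log2 fold change was 6.19 ± 1.09 (SE; edgeR adjusted p = 4.49e-05). It was 6.53 without the 2 libraries that stood apart and 5.48 without normoxia without SPP1 replicate 2, the lowest value of 13 fits that each left out 1 library. The ID was at 73.1 ± 86.2 CPM (SD, n = 12) in the unwashed contact cultures and at 6.04 ± 4.49 CPM (SD, n = 12) in the washed ones, and medium exceeded contact by 5.12 ± 0.341 (log2, SE; edgeR adjusted p = 1.01e-14).

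ENSG00000134323 was at 1.95 and 5.21 CPM in the naive libraries and at 25.4 to 418 CPM in medium, with a median of 279. The lowest values again came from hypoxia without SPP1 replicate 1 (25.4 CPM) and normoxia without SPP1 replicate 3 (69.8 CPM), and the groups did not overlap. The log2 fold change was 6.08 ± 0.966 (SE; edgeR adjusted p = 1.03e-05), with 5.48 to 6.84 when single libraries were left out. From the summed counts, medium was 73.9 times naive with a 95% counting interval of 33.9 to 202. In unwashed contact cultures it was at 48.3 ± 50.4 CPM and in washed ones at 6.77 ± 5.79 CPM (SD, n = 12 each), and medium exceeded contact by 4.25 ± 0.282 (log2, SE; edgeR adjusted p = 9.80e-15).

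Of the 335 lower IDs, ENSG00000141293 had the largest fold change. It was at 91.7 and 337 CPM in the naive libraries and at 4.49 to 24.7 CPM in medium, with a median of 9.36. All 11 medium libraries lay below both naive libraries, and the highest of them was hypoxia without SPP1 replicate 1. The log2 fold change was −4.26 ± 0.383 (SE; edgeR adjusted p = 3.10e-10). It was −3.05 without naive replicate 2 and −4.92 without naive replicate 1, and passed the threshold in both fits. Contact cultures held 24.5 ± 7.39 CPM unwashed and 50 ± 38.5 CPM washed (SD, n = 12 each), above medium by an amount that passed the test (medium minus contact −1.58 ± 0.26, log2, SE; edgeR adjusted p = 2.84e-06).

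ENSG00000185305 was at 93.7 and 430 CPM in the naive libraries and at 8.32 to 24.7 CPM in medium, with a median of 13.9. The groups did not overlap, and the 2 medium libraries that stood apart, at 13.9 and 16.0 CPM, were within the range of the other medium libraries here. The log2 fold change was −4.10 ± 0.434 (SE; edgeR adjusted p = 9.46e-09), which became −2.63 without naive replicate 2 and −4.82 without naive replicate 1. Unlike for the 3 IDs above, medium and contact did not differ at the threshold. The contact cultures held 14.0 ± 5.80 CPM unwashed and 32.9 ± 26.5 CPM washed (SD, n = 12 each), and the log2 difference of medium minus contact was −0.42 ± 0.287 (SE; edgeR adjusted p = 0.21).

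**Figure D3:**
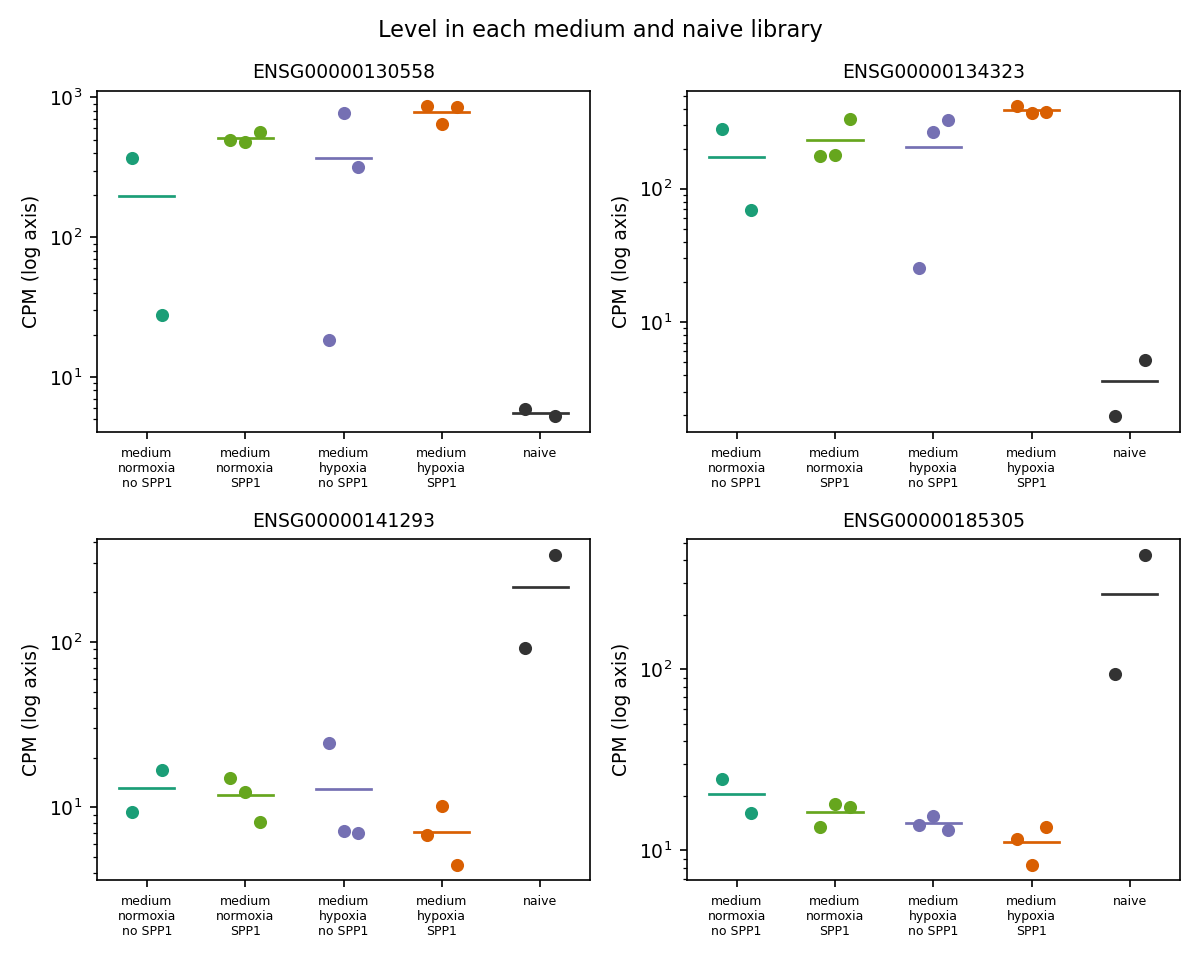
CPM on a log axis, with 1 point per library, a line at the group mean, 4 medium groups and the naive group. Shown are the 2 IDs per direction with the largest fold change among called IDs without overlap and with a mean log2 CPM of at least 5. In ENSG00000130558 and ENSG00000134323 every medium point lies above both naive points, and in ENSG00000141293 and ENSG00000185305 every medium point lies below both.

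The 4 RAW264.7 culture conditions were next compared with naive one at a time, with the same 2 naive libraries in each comparison. Medium from hypoxia with SPP1 gave 1554 called IDs (29.9%; 850 higher, 704 lower) and medium from normoxia with SPP1 gave 1292 (24.9%; 714 higher, 578 lower). Medium from hypoxia without SPP1 gave 902 (17.4%; 530 higher, 372 lower) and medium from normoxia without SPP1 gave 888 (17.1%; 532 higher, 356 lower). The groups without SPP1 hold the 2 libraries that stood apart, and 1 of those groups has only 2 libraries. Without those 2 libraries the counts, in the order given, were 1654, 1377, 1085 and 611, the last from a group left with 1 library that was assumed to vary like the other groups. Whether the counts differed was not tested. Without naive replicate 2 the counts were 720, 498, 174 and 200 in the same order, and without naive replicate 1 they were 1233, 1017, 664 and 798.

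**Figure D4:**
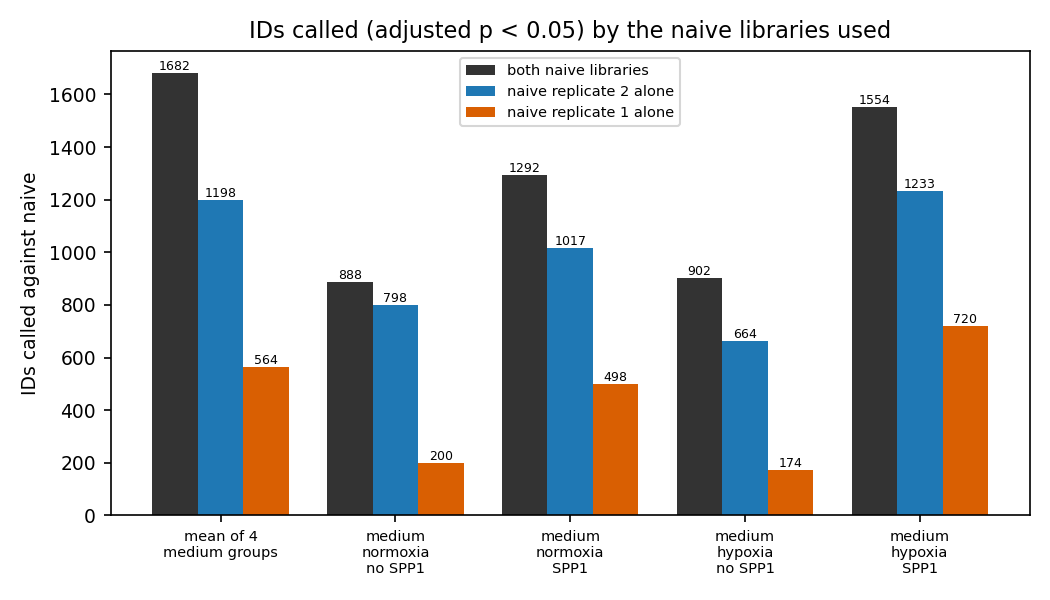
Number of IDs called against naive (bars, from 0) for the mean of the 4 medium groups and for each group, with both naive libraries or 1 of them. Every bar is lowest with naive replicate 1 alone, from 564 of 1682 for the mean to 174 of 902 for hypoxia without SPP1.

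Some IDs were named in several of these comparisons, which share the 2 naive libraries. Ranks are among IDs called in the group, without overlap with naive and with a mean log2 CPM of at least 5. ENSG00000130558 was among the 2 highest in every group except normoxia without SPP1, with log2 fold changes of 6.5 ± 1.14 in normoxia with SPP1, 6.03 ± 1.13 in hypoxia without SPP1 and 7.12 ± 1.16 in hypoxia with SPP1 (SE; edgeR adjusted p of 9.46e-05, 0.000381 and 2.46e-05). ENSG00000141293 was among the 2 lowest in all 4 groups, with log2 fold changes from −4.88 ± 0.607 in hypoxia with SPP1 to −4.01 ± 0.567 in hypoxia without SPP1 (SE). ENSG00000134323 and ENSG00000185305 were named again only for hypoxia without SPP1, where their log2 fold changes were 5.87 ± 1.0 and −4.20 ± 0.656 (SE; edgeR adjusted p of 0.000166 and 6.42e-05).

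ENSG00000091656 was named in the other 3 groups and showed how uneven the medium libraries were. It held 0 counts in both naive libraries. In 9 medium libraries it was at 89.7 to 155 CPM, but in hypoxia without SPP1 replicate 1 it was at 0 and in normoxia without SPP1 replicate 3 at 0.698 CPM, so the groups overlapped. Its mean over the 11 medium libraries, 97.2 ± 52.0 CPM (SD), was at least 28.4-fold higher than naive when 3 counts per naive library are taken as the limit (edgeR adjusted p = 0.00113). Over the 9 libraries alone the mean was 119 ± 22.6 CPM (SD), at least 34.7-fold higher than naive by the same limit. It was at 18.8 ± 28.3 CPM in the unwashed contact cultures and at 0.239 ± 0.433 CPM in the washed ones (SD, n = 12 each). For this ID the 2 libraries were thus at the level of the naive libraries and of the washed cultures. They were also within the range of the unwashed ones (0 to 94.3 CPM).

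ENSG00000131747, named for normoxia without SPP1, held 1 count in each naive library, which is 0.976 and 1.3 CPM. In medium it ran from 10.0 CPM in hypoxia without SPP1 replicate 1 to 112 CPM in normoxia without SPP1 replicate 2, with a median of 41.7, and the groups did not overlap. From the summed counts medium was 43.4 times naive, with a 95% counting interval of 12 to 359, and the test of the mean of the 4 groups gave an edgeR adjusted p of 2.93e-05. Contact cultures were also above naive, at 20.2 ± 9.82 CPM unwashed and 30.7 ± 14.9 CPM washed (SD, n = 12 each). Medium exceeded contact by 0.96 ± 0.226 (log2, SE; edgeR adjusted p = 0.000425).

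Also for normoxia without SPP1, ENSG00000204580 was at 258 and 1235 CPM in the naive libraries and at 45.5 to 253 CPM in medium, with a median of 75.5. The highest medium value, 253 CPM in hypoxia without SPP1 replicate 1, was just under naive replicate 1. The log2 fold change for the mean of the 4 groups was −3.11 ± 0.296 (SE; edgeR adjusted p = 9.66e-10), and −1.58 without naive replicate 2, still past the threshold. Contact cultures were also below naive, at 74.2 ± 14.9 CPM unwashed and 63.4 ± 15.5 CPM washed (SD, n = 12 each). Medium and contact did not differ at the threshold (0.35 ± 0.174, log2, SE; edgeR adjusted p = 0.0842).

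ENSG00000122641 was among the lowest in both groups with SPP1 and depended on naive replicate 1. It was at 448 CPM in that library and at 23.4 CPM in the other. Medium ran from 1.93 to 79.6 CPM with a median of 13.4, so the 11 medium libraries overlapped with naive. The groups with SPP1 did not, with highest values of 15.8 CPM in normoxia and 12.6 CPM in hypoxia. Their log2 fold changes were −4.26 ± 0.687 and −5.11 ± 0.73 (SE). The log2 fold change for the mean of the 4 groups, −3.52 ± 0.451 (SE; edgeR adjusted p = 3.32e-07), became −0.18 without naive replicate 1. This ID was also called among the 4 medium groups, with an edgeR adjusted p of 0.0399. Contact cultures held 25.7 ± 6.76 CPM unwashed and 19.5 ± 7.55 CPM washed (SD, n = 12 each). Medium and contact did not differ at the threshold (−0.11 ± 0.286, log2, SE; edgeR adjusted p = 0.768).

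Few IDs differed among the 4 medium groups. The quasi-likelihood F test of all 4 groups together called 27 of 5193 IDs (0.52%), with 395 at an unadjusted p under 0.05. The group mean was highest in normoxia without SPP1 for 26 of the 27 and lowest in hypoxia with SPP1 for 22. In 24 of the 27 the highest single library was normoxia without SPP1 replicate 3, which lay farthest out on the second principal component. Without that library 0 IDs were called by edgeR (267 at an unadjusted p under 0.05), and without normoxia without SPP1 replicate 2, which leaves it as the only library of its group, 71 were called. Leaving out hypoxia with SPP1 replicate 1 or 2 gave 15 or 11.

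ENSG00000176749 had the smallest p of the 27 (edgeR adjusted p = 0.000114). It was at 1276 CPM in normoxia without SPP1 replicate 3 and at 58.2 CPM in replicate 2 of the same group. The other medium libraries ran from 37.4 to 124 CPM, below both naive libraries (179 and 132 CPM). The contact cultures ran from 186 to 887 CPM, so that 1 medium library was above all 24 of them and the other 10 were below all 24.

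ENSG00000123358 followed, at 706 CPM in normoxia without SPP1 replicate 3 and at 17.1 to 70.9 CPM in the other 10 medium libraries (edgeR adjusted p = 0.000116). The naive libraries, at 58.6 and 50.8 CPM, were within the range of those 10, whereas the contact cultures ran from 260 to 1965 CPM and included the value of the single library. Without that library the adjusted p was 0.999 for ENSG00000176749 and 0.869 for ENSG00000123358.

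ENSG00000118503 was at 102 CPM in normoxia without SPP1 replicate 3 and at 1.80 to 14.6 CPM in the other medium libraries, against 47.8 and 27.4 CPM in naive and 31.5 to 113 CPM in contact (edgeR adjusted p = 0.000695, and 0.999 without the library). ENSG00000177606 was at 375 CPM in that library and at 29.6 to 89.6 CPM in the other 10, against 87.8 and 23.4 CPM in naive and 62.9 to 192 CPM in contact (edgeR adjusted p = 0.000695, and 0.933 without the library). In all 4 of these IDs the difference among the groups was the difference of 1 library from the rest.

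**Figure D5:**
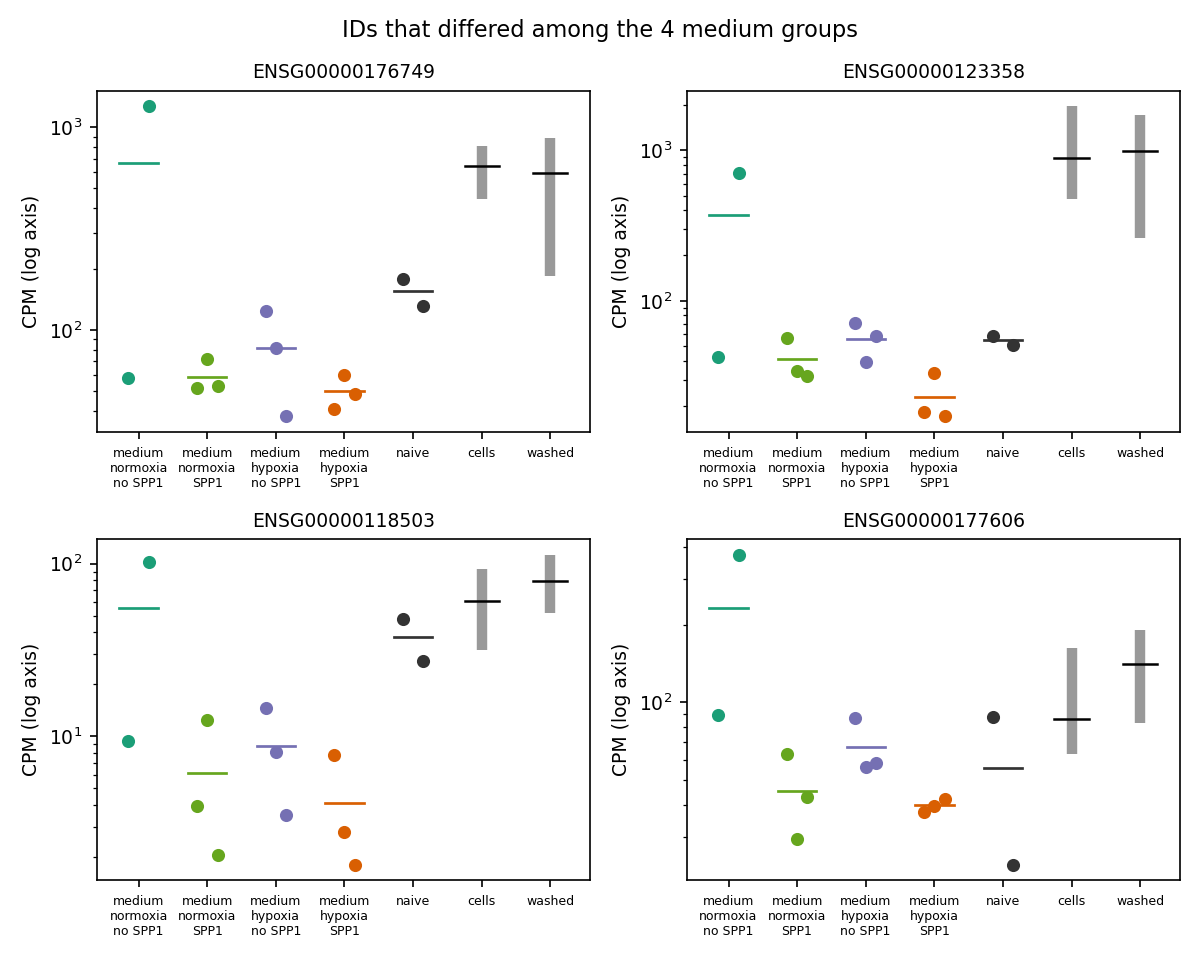
CPM on a log axis of the 4 IDs with the smallest p for a difference among the medium groups, with 1 point per medium or naive library, a line at the group mean, and for the contact cultures a grey bar from the lowest to the highest of 12 libraries with a black line at the median. The raised point of normoxia without SPP1 is replicate 3 in each panel, from 102 CPM in ENSG00000118503 to 1276 CPM in ENSG00000176749.

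Medium was also compared with the 24 contact libraries, a comparison that does not use the naive libraries. It called 3065 IDs (59%), of which 1591 (30.6%) were higher and 1474 (28.4%) lower in medium, with a median size of 0.973 on the log2 scale. Without the 2 medium libraries that stood apart 3042 were called. Contact cultures can hold RNA of the RAW264.7 cells as well as of the splenocytes, and the part of that RNA in these differences was not tested. The number of libraries is larger here, and the median standard error of the log2 fold change was 0.224, against 0.486 for medium and naive. With the same fit, 1418 IDs (27.3%) were called between the unwashed contact cultures and naive and 1793 (34.5%) between the washed ones and naive. The counts of calls against naive share the 2 naive libraries.

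Complete separation of medium from contact was rare, with all medium libraries above all contact libraries for 68 IDs (1.31%) and below all of them for 51 (0.982%). Of those above that were called and had a mean log2 CPM of at least 5, ENSG00000185338 had the largest fold change. It was at 102 to 687 CPM in medium, with a median of 295. It was at 34.1 ± 17.4 CPM in the unwashed and 20.7 ± 11.6 CPM in the washed contact cultures (SD, n = 12 each), a log2 difference of 3.69 ± 0.203 (SE; edgeR adjusted p = 1.01e-16). Its naive values, 352 and 238 CPM, lay within the medium range, and medium minus naive was 0.17 ± 0.426 (log2, SE; edgeR adjusted p = 0.784). For this ID the contact cultures were thus the ones that lay apart.

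ENSG00000145050 was at 57.8 to 256 CPM in medium, with a median of 158, above the contact cultures at 22.2 ± 13 CPM unwashed and 22.3 ± 9.38 CPM washed (SD, n = 12 each). The naive libraries were at 39.0 and 26.1 CPM. Here medium was higher than both, by 2.72 ± 0.202 against contact and by 2.09 ± 0.514 against naive (log2, SE; edgeR adjusted p of 1.05e-13 and 0.00207).

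ENSG00000104369 had the largest fold change below contact among called IDs with complete separation and a mean log2 CPM of at least 5. It was at 0.870 to 16.0 CPM in medium with a median of 1.93, the highest value being that of normoxia without SPP1 replicate 3, and at 48.1 ± 14.9 CPM unwashed and 72.0 ± 35.3 CPM washed in contact (SD, n = 12 each). The log2 difference was −4.16 ± 0.305 (SE; edgeR adjusted p = 9.39e-14) and reached −4.71 without that library. The other 10 medium libraries ran from 0.870 to 5.40 CPM. Naive replicate 1 was at 5.86 CPM (6 counts) and naive replicate 2 at 3.91 CPM (3 counts). The medium mean was 1.01 times the naive limit of 3 counts (3.42 CPM). Medium and naive were thus both near the limit, and their order is uncertain. Medium minus naive was −0.66 ± 0.708 (log2, SE; edgeR adjusted p = 0.49). The size of the difference from contact is uncertain for the same reason.

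ENSG00000099954 was at 7.19 to 48.1 CPM in medium with a median of 19.4, and its 2 highest values, 48.1 and 38.5 CPM, came from the 2 libraries that stood apart. Contact held 151 ± 46.6 CPM unwashed and 185 ± 72.9 CPM washed (SD, n = 12 each), and naive 21.5 and 63.8 CPM. The log2 difference was −3.04 ± 0.204 for medium minus contact and −1.09 ± 0.368 for medium minus naive (SE; edgeR adjusted p of 1.27e-14 and 0.0214).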

How the data were processed

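RNA of splenocyte cultures was sequenced as single reads from QuantSeq 3′ libraries. Per the series text, the authors trimmed the reads, used STAR 2.7.10b for alignment to GRCh38, and obtained counts per gene from Rsubread 2.0.3. The authors deposited raw counts for all 37 libraries (100% whole numbers). The annotation release, and whether the molecular identifiers of the kit were used in counting, are not given in the sources used here, so counts may include PCR copies. The alignment to a human genome leaves out mouse transcripts that diverge from it.

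Counts were analysed with R 4.3.3 and edgeR 4.0.16. filterByExpr with the group as design and a minimum count of 10 kept 5193 of 22657 IDs with a count. After TMM scaling, a quasi-likelihood model with 1 mean for each of 13 groups was fitted to all 37 libraries without a replicate term. Medium was the mean of its 4 groups with equal weight. The contrasts were adjusted by Benjamini-Hochberg over all IDs, and 0.05 was the threshold. Standard errors came from the F statistic. Principal components used log2 CPM with a prior count of 2. Total counts ran from 631574 to 1319225 in the 13 libraries and set the counting error of low IDs. The count intervals (95%) are for summed counts and cover counting error only. The pipeline was tested on simulated data.

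The members and lists were chosen with earlier results of these data known. For comparisons with naive or contact, named IDs were called ones without overlap between the libraries compared. They had a mean log2 CPM of 5 or more and were ranked by fold change. For differences among the medium groups, IDs were named by smallest p alone. The planned symbol condition, marker genes and gene lists could not be applied because the IDs have no symbols, so 2 IDs per direction were named in place of 10, also for each medium group and for medium against contact, which the plan did not cover, and 4 for differences among medium groups. The alternatives tried were all IDs with a count, RLE scaling, DESeq2 1.42.0, a replicate block, a fit of the 13 libraries, weight per library, and leaving out libraries. The 2 libraries that stood apart were identified from these data. Leaving them out was thus chosen with the data known in every comparison, and was not planned for the single-group counts.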

Additional observations from a re-analysis of the deposited data

Results flagged for a closer look

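The difference among the 4 medium groups passed the edgeR quasi-likelihood test for 27 IDs. The 4 with the smallest p were ENSG00000176749 (adjusted p = 0.000114), ENSG00000123358 (0.000116), ENSG00000118503 (0.000695) and ENSG00000177606 (0.000695), each highest in normoxia without SPP1 replicate 3.

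For 3065 IDs the difference from naive was not the same in medium as in contact cultures, tested by edgeR as medium minus contact. The largest such differences were named among called IDs without overlap and with a mean log2 CPM of at least 5. They were 3.69 for ENSG00000185338, 2.72 for ENSG00000145050, −4.16 for ENSG00000104369 and −3.04 for ENSG00000099954 (log2).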

How the results depend on the processing

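The medium and naive comparison called 1705 IDs with RLE scaling (838 higher, 867 lower), 1688 with every ID with a count, 1837 when only the 13 libraries were fitted, 1719 with equal weight per medium library and 1756 with DESeq2. Leaving out single libraries gave 564 (without naive replicate 2) to 1795. For single groups against naive, leaving out a naive library gave 200 to 798 in normoxia without SPP1, 498 to 1017 in normoxia with SPP1, 174 to 664 in hypoxia without SPP1 and 720 to 1233 in hypoxia with SPP1. The comparison with contact called 2753 to 3303 over its alternatives. Differences among the medium groups gave 67 calls for every ID with a count, 57 with DESeq2, 0 to 71 when single libraries were left out, and 0 by edgeR (180 at an unadjusted p under 0.05) without both libraries that stood apart. The cause was not tested.

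Replicate numbers were shared across groups. Over 22 same-numbered pairs of medium and naive libraries, the correlation of deviations from the group mean ran from −0.477 to 0.21 (median 0.004). Over 45 pairs with other numbers it ran from −0.407 to 0.477 (median 0.002), and 3 of 13 libraries correlated best with their own number. Deviations within such small groups mirror each other, so the check cannot tell whether the number marks a batch. A replicate block gave 1540 IDs for medium against naive, 24 among the medium groups and 3058 against contact.

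The 12 IDs named for medium against naive (mean of the 4 groups) or against contact kept their direction under the alternatives run for those comparisons, and ENSG00000122641 lost its call without naive replicate 1. Fold changes of single groups were not recomputed. RLE scaling moved the median of all IDs by −0.05 (log2) for medium against naive. With 2 naive libraries of 967604 and 631574 counts, depth and the naive arm limit what can be called.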
